A study of Homo sapiens with 24 samples.

Results

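The chorionic gonadotropin beta genes were followed in MDA686TU cells treated with 2 plant polyphenols. The set holds 8 genes: the 6 beta subunit genes CGB1, CGB2, CGB3, CGB5, CGB7 and CGB8, the neighbouring luteinizing hormone beta gene LHB, and CGA, which encodes the alpha subunit. They were found by symbol, and all 8 were among the 60617 genes of the count table. They were chosen by their measured counts, several CGB genes being lower in cells given epigallocatechin gallate (EGCG) alone than in the untreated control, so the values of that contrast are given as a description, without a test. The 6 CGB genes were also added up as a family sum, since several of their transcripts are near identical and short reads of 1 copy can match another.

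MDA686TU is an established carcinoma line of the head and neck with squamous features, and all samples came from this 1 line. Each of 4 groups had 6 libraries. The cells were left untreated, were given 40 µM EGCG or 15 µM resveratrol, or received the combination at the same concentrations, and the treatment lasted 24 h. EGCG is the main catechin of green tea and was dissolved in water, and resveratrol is a stilbene of grapes that came from a stock in DMSO. The study asked which genes the agents changed alone and together. The sources used here do not say whether the control received DMSO, so resveratrol and its solvent cannot be told apart against the control, whereas both arms of the combination and resveratrol comparison received resveratrol. The labels number 6 replicates per group without saying that they were separate cultures, so p-values measure the spread between these libraries, which may be technical.

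Human chorionic gonadotropin is a glycoprotein hormone of the placenta. It is built of a common alpha subunit, shared with luteinizing hormone, follicle-stimulating hormone and thyrotropin, and a beta subunit that gives each hormone its identity. The beta subunit is made from a cluster of duplicated CGB genes that arose from LHB, and in pregnancy the syncytiotrophoblast is its main source. Many carcinomas make free beta subunit without the alpha subunit. In trophoblast cells the cAMP and protein kinase A pathway and the transcription factors AP-2, Sp1 and OVOL1 act on these genes.

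The libraries held 7034872 to 11735574 counts, and 3 counts corresponded to 0.256 to 0.426 CPM, the count scaled to the library total, in a single library. Replicates 1 to 3 of every group had 0.249% to 0.326% of their counts on mitochondrial transcripts and replicates 4 to 6 had 0.448% to 0.775%. No source names a batch. For the family sum, values within these replicate sets are given beside the pooled ones. Called genes had an adjusted p under 0.1 and an unadjusted p under 0.05, the limits of the study. No share of all tested genes is given for an unadjusted p alone, so counts at that limit stand without one. The squamous epithelial markers, 8 of 8, were detected in all libraries, keratin KRT5 with a median FPKM of 1122. None of them was called with EGCG alone, beside 1.76% of all tested genes, and 0 had an unadjusted p under 0.05 in edgeR there. In the combination against resveratrol 3 of 8 were called, beside 7.86% of all tested genes: TP63, a transcription factor of basal cells, with a log2 fold change of 0.13 (edgeR adjusted p = 0.00421), SFN, a 14-3-3 protein, with 0.13 (edgeR adjusted p = 0.00785), and KRT6A, a keratin, with -0.08 (edgeR adjusted p = 0.0874). No pituitary marker reported here passed the filter on low counts, and PRL and GH1 had no count in any library. Among 10 stromal and immune markers, the 3 that were tested were COL1A1, COL1A2 and VWF, and of these COL1A1 was called in both comparisons, as lower with EGCG and as higher in the combination than with resveratrol.

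The genes lie together on chromosome 19, apart from CGA on chromosome 6. In GRCh38 the cluster runs over 42.9 kb, in the order LHB (chr19:49015980-49017091), CGB3 (chr19:49022869-49024333), CGB2 (chr19:49031890-49033238), CGB1 (chr19:49035569-49036895), CGB5 (chr19:49043848-49045311), CGB8 (chr19:49047638-49049111) and CGB7 (chr19:49054274-49058860). CGB2 and CGB5 are on the plus strand and the others on the minus strand, as is CGA at chr6:87085498-87095106. All 8 genes are annotated as protein coding.

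The transcripts fell into classes by sequence. CGB3 and CGB5 were 99.1% identical over a global alignment, CGB5 and CGB8 98.2%, and CGB1 and CGB2 95.5%. Transcripts of CGB7 and CGB5 were 39.6% identical, with lengths of 2151 and 877 bases. A difference in length lowers this share in a global alignment, and CGB5 and CGA had 48.6%. The value therefore does not measure how far CGB7 has diverged from the other copies. Reads were pairs of 50 bases. The share of 50-base windows found in the transcript of no other gene was 14.5% for CGB5, 17.7% for CGB8 and 20.4% for CGB3. It was 26.0% for CGB2, 16.6% for CGB1 and 37.9% for CGB7. These shares are for single reads and not for pairs. In CGB7, 18.7% of windows were shared with another CGB gene. Further windows of CGB7 matched ENSG00000268655, ENSG00000283251 or ENSG00000283663, which are not in the sum and had 65, 0 and 1 counts over all libraries. LHB, at 99.4%, and CGA, at 100%, can be told from the rest. How reads that match several genes were counted is not given in the sources used here, so the division of counts among the CGB genes is uncertain and their sum is the safer value. A further annotated gene, ENSG00000267335, overlaps CGB3, CGB2 and CGB1 and had 9 counts over all libraries.

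The upstream sequences also formed classes, and they are shown because the genes that were read and the genes that were not can be compared in them. RefSeq promoter entries on build GRCh38.p14 were matched by symbol for 8 of 8 genes. Over the 250 bases before the start, CGB3 and CGB5 were 96.0% identical, CGB5 and CGB8 89.3%, and CGB1 and CGB2 69.9%. The starts do not lie at the same place in the shared sequence, and such an offset lowers this share. The Sp1 box below starts at -193 in CGB8 and -204 in CGB5, and the CRE at -31 in CGB2 and -53 in CGB1. These shares therefore do not measure divergence alone. CGB7 and CGB5 were 49.7% identical, and CGB5 and CGA, a gene outside the cluster, 49.6%. The CGB7 window before the RefSeq start lies inside the annotated CGB7 gene, which extends to 49058860. Its share therefore does not measure how far the CGB7 promoter has diverged. The last 150 bases before the start are printed for CGB5 (chr19:49043698-49043847, plus strand), CGB8 (chr19:49049112-49049261, minus), CGB3 (chr19:49024334-49024483, minus), CGB2 (chr19:49031740-49031889, plus), CGB1 (chr19:49036896-49037045, minus) and CGA (chr6:87095107-87095256, minus), 5′ to 3′ on the strand of the gene. Capitals mark the cAMP response element (CRE) TGACGTCA.
CGB5: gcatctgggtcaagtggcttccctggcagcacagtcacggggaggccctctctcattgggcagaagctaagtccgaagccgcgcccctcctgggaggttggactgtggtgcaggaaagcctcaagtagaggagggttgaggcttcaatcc
CGB8: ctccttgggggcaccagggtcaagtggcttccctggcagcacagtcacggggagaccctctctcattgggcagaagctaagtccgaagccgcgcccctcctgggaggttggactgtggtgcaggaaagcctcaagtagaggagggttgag
CGB3: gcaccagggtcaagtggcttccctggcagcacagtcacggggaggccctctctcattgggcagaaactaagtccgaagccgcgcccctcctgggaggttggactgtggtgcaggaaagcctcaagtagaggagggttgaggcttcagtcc
CGB2: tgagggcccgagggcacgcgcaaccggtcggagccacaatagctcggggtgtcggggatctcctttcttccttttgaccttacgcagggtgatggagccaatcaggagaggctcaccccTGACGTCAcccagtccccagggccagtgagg
CGB1: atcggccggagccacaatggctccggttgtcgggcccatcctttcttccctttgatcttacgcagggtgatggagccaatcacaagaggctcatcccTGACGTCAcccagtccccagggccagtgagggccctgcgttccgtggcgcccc
CGA: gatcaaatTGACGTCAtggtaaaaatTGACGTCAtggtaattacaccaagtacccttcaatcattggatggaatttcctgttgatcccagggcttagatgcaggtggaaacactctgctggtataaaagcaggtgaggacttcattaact
The CRE letters, which read the same on both strands, start at -31 in CGB2, at -53 in CGB1, and at -142 and -124 in CGA, counted from the gene start. They occur within 250 bases of the start in 1.65% of the 35116 promoters searched, and not in these windows of CGB3, CGB5, CGB7, CGB8 or LHB. A further search on both strands used GCCNNNGGC, the AP-2 consensus, which was found in CGB7 at -98 and in 19.8% of promoters. The Sp1 box GGGCGG was found in 1 place each in CGB3, CGB5, CGB8 and LHB, in 2 places in CGB7, where the place at -93 overlaps the AP-2 letters, and in 42.6% of promoters. No bases are printed for CGB7, where annotated exons overlap the 150 bases before the RefSeq start. These matches describe the letters only.

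CGB2, CGB3, CGB5, CGB7 and CGB8 were read at low levels and the other members hardly at all. Levels between genes are compared in the authors' FPKM, which divides by gene length. In the control, CGB5 had 7.05 ± 1.64 FPKM (SD, n = 6), CGB8 had 6.42 ± 0.849 and CGB2 had 3.54 ± 1.11. The libraries of CGB5 and CGB8 overlapped, and CGB8, from 5.57 to 7.40, lay above CGB2, from 2.61 to 5.45. CGB3, at 1.42 ± 0.572 FPKM, and CGB7, at 1.20 ± 0.344, overlapped as well. CGB7 had more counts than CGB2 and CGB3 but a lower FPKM than CGB2, since FPKM divides by length.

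CGA, which encodes the alpha subunit that every complete gonadotropin needs, had no count in any of the 24 libraries. With 211100186 counts in all, 3 counts over all libraries correspond to 0.0142 CPM, an upper limit that covers counting error only. LHB, the beta subunit of luteinizing hormone, had 0 counts in 13 of 24 libraries and at most 3 counts, 19 in all, of which 6 were in the control, 3 with EGCG, and 5 each in the other groups. CGB1 had 0 counts in 19 of 24 libraries and at most 2, 6 in all (2 in the control, 1 with EGCG, 1 with resveratrol and 2 in the combination), although 65.8% of the 50-base windows of its transcript occur in other CGB transcripts. CGB1 and CGB2 both hold the CRE letters printed above, and CGB2 had 480 counts over the same libraries. CGB1 lies within the annotated gene ENSG00000267335 on the same strand. How reads that overlap more than 1 gene were counted is not given, so the count of CGB1 may be too low. The same holds for CGB3, which ENSG00000267335 also overlaps on the same strand. It holds as well for CGB7, which ENSG00000283663 and ENSG00000283251 overlap on its strand. No fold is given for CGB1, LHB or CGA, as all their groups were at or near the floor of 3 counts per library.

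**Figure D1:**
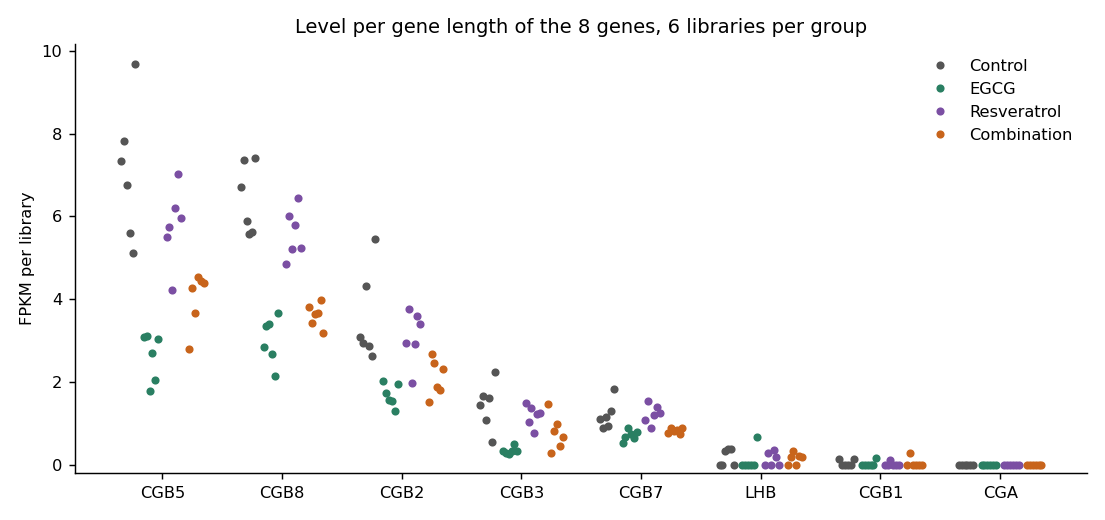
FPKM (vertical axis) of each of the 8 genes in every library, with 6 points for each of the 4 groups. CGB5 and CGB8 had the highest levels, CGB3 and CGB7 had control means of 1.42 and 1.20 FPKM, and CGA was at 0 in all 24 libraries.

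The filter on low counts kept 15476 genes and 5 of the 8 members. CGB5, CGB7 and CGB8 reached its level of 1.16 CPM in all 24 libraries and CGB2 in 23. CGB3 reached it in 7 libraries, 4 of the control, 2 with resveratrol and 1 with the combination, so it passed without any library of EGCG alone. The 5 genes that passed therefore do not stand for all 8.

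The family sum was lowest with EGCG alone and intermediate with the combination. Values are the authors' normalized counts, which are counts divided by a size factor per library. In the control the sum ranged from 144 to 244, with a median of 173 and a mean of 177 ± 36.1 (SD, n = 6). With EGCG it ranged from 64.4 to 92.9 (median 78.9, mean 79.4 ± 9.34), so that the highest EGCG library was under the lowest control. The sum with resveratrol ranged from 125 to 181 (median 157, mean 156 ± 19.9) and overlapped the control. The combination gave 95.8 to 109.7 (median 106, mean 105 ± 5.17), below every control and every resveratrol library and above every EGCG library. The order of the means was thus control, resveratrol, combination and EGCG, and in this order the neighbouring control and resveratrol overlapped, whereas the next neighbours did not. In bulk RNA, fewer cells that express a gene and less RNA per cell cannot be told apart.

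**Figure D2:**
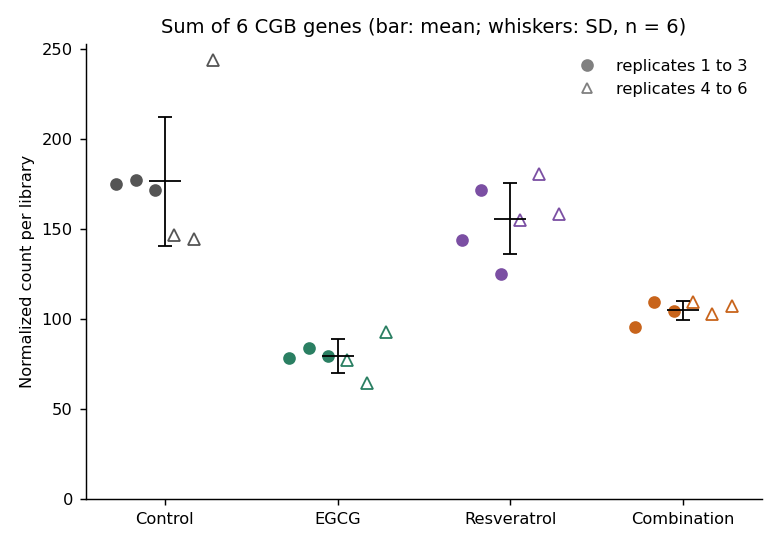
Normalized count of the 6 CGB genes added up (vertical axis, from 0) in every library of the 4 groups, with circles for replicates 1 to 3 and open triangles for replicates 4 to 6. The combination lay between 95.8 and 109.7 and resveratrol between 125 and 181, and the highest control library, at 244, was replicate 6.

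Adding EGCG to resveratrol lowered the family sum. This comparison did not choose the genes and contrasts no control library, and it is the test reported for the members. The filter, the scaling and the estimate of the spread in the fit came from all 24 libraries, control and EGCG included. The log2 fold change of the combination against resveratrol was -0.57 (SE 0.105), a ratio of mean normalized counts of 0.673. The adjusted p was 0.000492 by edgeR's quasi-likelihood test with Benjamini-Hochberg adjustment over all genes tested. A two-sided exact permutation test of the mean log2 CPM in 6 and 6 libraries gave p = 0.00216, the smallest that it can give. All 6 libraries of the combination lay below all 6 of resveratrol, which was so for 1.37% of all tested genes.

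The decrease of the sum was present in both replicate sets. In replicates 1 to 3 the mean fell from 147 ± 23.7 with resveratrol to 103 ± 6.98 with the combination (SD, n = 3), a log2 fold change of -0.51 with an edgeR adjusted p of 0.0141. Replicates 4 to 6 had means of 165 ± 13.8 and 107 ± 3.18, and here the log2 fold change was -0.63 with an edgeR adjusted p of 0.0141. Without CGB7 the log2 fold change of the sum was -0.57, without CGB5 it was -0.59, and for CGB3, CGB5 and CGB8 alone it was -0.58.

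By the limits for a call, 3 of the 5 tested members were lower in the combination than with resveratrol, and none was higher. Over all tested genes 7.86% were called in either direction and 3.86% as lower. The median log2 fold change of all tested genes was near 0, and those of the 5 members lay between -0.51 and -0.63.

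CGB8 encodes a beta subunit and was the called member with the smallest p. Its normalized count ranged from 37.3 to 49.5 with resveratrol (median 42.4) and from 24.5 to 30.6 with the combination (median 28.1). The groups did not overlap, and the log2 fold change was -0.63 (SE 0.128, edgeR adjusted p = 0.00157).

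CGB7 encodes a beta subunit that differs from that of the other copies in a few residues. Its normalized count was 26.2 to 45.5 with resveratrol (median 36.4) and 21.5 to 26.5 with the combination (median 24.3). In the combination 4 of 6 libraries lay below all resveratrol libraries. The log2 fold change was -0.58 (SE 0.166, edgeR adjusted p = 0.0335), and without resveratrol replicate 2 the call was lost at an adjusted p of 0.121.

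CGB5, in placenta among the most expressed copies, had normalized counts of 32.3 to 53.7 with resveratrol (median 44.8) and 21.4 to 34.7 with the combination (median 33.2). The groups overlapped, with 2 of 6 combination libraries below all resveratrol libraries. The log2 fold change was -0.51 (SE 0.157, edgeR adjusted p = 0.0475). The call was lost without resveratrol replicate 5 (adjusted p = 0.114) or without combination replicate 1 (adjusted p = 0.118).

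CGB2 and CGB3 were not called. CGB2, whose promoter differs from that of CGB5 and whose product is less well known, had normalized counts of 14.8 to 28.3 with resveratrol (median 23.7) and 11.3 to 20.0 with the combination (median 15.7). Its log2 fold change was -0.54 (SE 0.200, edgeR adjusted p = 0.123), and it was called without resveratrol replicate 3 (adjusted p = 0.0547) or without combination replicate 2 (adjusted p = 0.0999). CGB3, a further beta subunit gene with 2 to 18 counts per library, had normalized counts of 5.93 to 11.5 with resveratrol and 2.11 to 11.3 with the combination. Its log2 fold change was -0.61 (SE 0.308, edgeR adjusted p = 0.288). The fold changes of both were of the size of the called members, with larger errors at their lower counts. In 3 against 3 libraries, 1 member, CGB8, was called in each replicate set, and neither CGB7 nor CGB5 was: the edgeR adjusted p of CGB7 was 0.229 in the earlier-numbered set and 0.194 in the other, and that of CGB5 was 0.183 and 0.278.

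**Figure D3:**
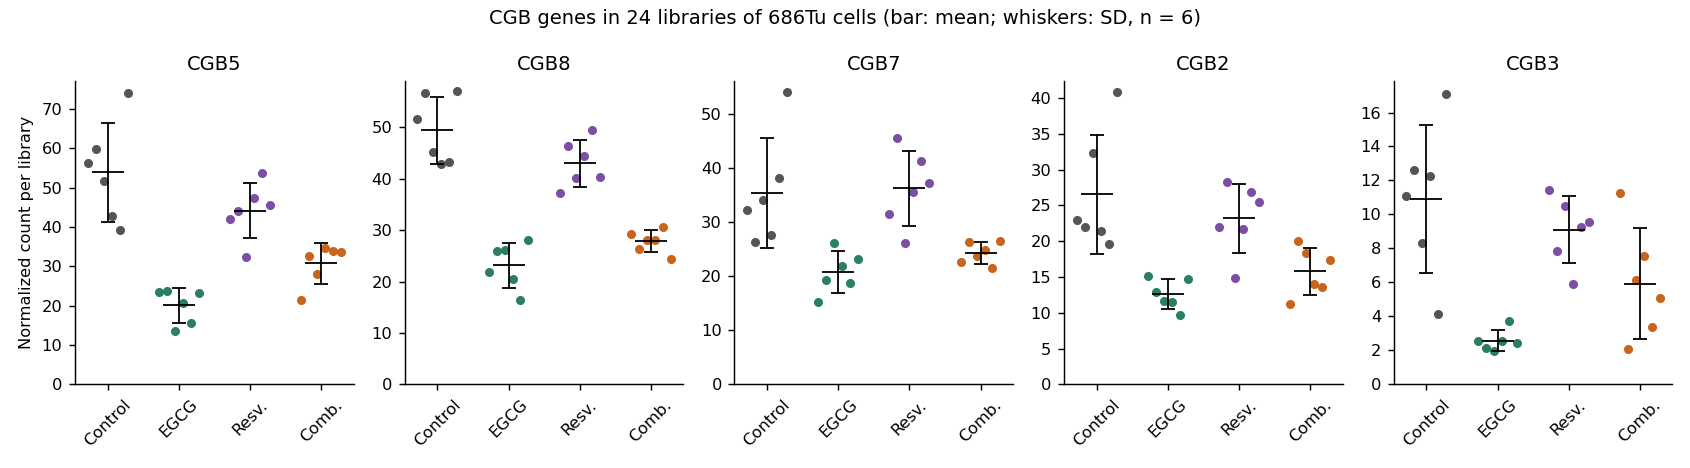
Normalized count (vertical axes, from 0) of the 5 tested CGB genes in every library, with the mean as a bar and the SD over 6 libraries as whiskers. All EGCG points lie below all control points for each gene, and for CGB8 all combination points lie below all resveratrol points, 24.5 to 30.6 against 37.3 to 49.5.

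EGCG alone went with the lowest level of every tested CGB gene, which is the pattern that chose the set. For 5 of 5 members the control and EGCG ranges lay apart with EGCG lower, beside 0.795% of all tested genes, and nothing is read from this count because it restates the choice. The family sum had a log2 fold change of -1.17 (SE 0.108). The value was -1.11 within replicates 1 to 3 and -1.24 within the other set. Without control replicate 6, the highest library, it was -1.06.

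The members differed in how far they lay below the control. CGB3 had a median normalized count of 11.7 in the control, from 4.12 to 17.1, and of 2.48 with EGCG, from 1.94 to 3.74. Its log2 fold change of -2.0 (SE 0.353) rests on 67 counts in the control libraries and 16 in the EGCG libraries. CGB5 ranged from 39.2 to 74.1 in the control (median 53.9) and from 13.6 to 23.7 with EGCG (median 21.9). Both genes lay without overlap, and for CGB5 the log2 fold change was -1.45 (SE 0.165).

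The log2 fold change of CGB8 was -1.11 (SE 0.129), from normalized counts of 42.8 to 57.0 in the control to 16.5 to 28.1 with EGCG. CGB2 had -1.09 (SE 0.204), from 19.6 to 40.8 down to 9.73 to 15.1. CGB7 had the value nearest to 0, -0.79 (SE 0.173), and its ranges of 26.3 to 54.1 and 15.1 to 26.2 nearly met. As a share of the counts of the family, CGB7 took 20.1% ± 3.93 in the control and 26.3% ± 4.82 with EGCG, and CGB3 took 6.07% ± 1.95 and 3.33% ± 1.27 (SD, n = 6). CGB5 took 30.4% ± 2.29 and 25.2% ± 4.52, CGB8 28.4% ± 3.06 and 29.0% ± 2.77, and CGB2 14.9% ± 2.44 and 15.9% ± 1.75. These shares overlapped between the groups for each gene and depend on how shared reads were divided.

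With resveratrol alone the sum overlapped the control, and the combination lay lower. Both are set against the same control libraries as EGCG, and their values are given side by side with no test. For the sum, the fitted log2 fold change was -0.18 (SE 0.0949) in resveratrol libraries. In combination libraries it was -0.75 (SE 0.103). Within replicates 1 to 3 these values were -0.23 and -0.75, and within replicates 4 to 6 they were -0.13 and -0.75. Without control replicate 6 these were -0.05 and -0.62. With resveratrol the members had log2 fold changes from -0.30 for CGB5 (SE 0.138) to 0.03 for CGB7 (SE 0.151), and for 0 of the 5 did the groups lie apart, beside 15.9% of all genes with all 6 libraries below the control. With the combination the log2 fold changes were -0.87 for CGB3 (SE 0.298), -0.83 for CGB8 (SE 0.125), -0.81 for CGB5 (SE 0.152), -0.74 for CGB2 (SE 0.195) and -0.55 for CGB7 (SE 0.168). Of these, CGB5 and CGB8 had all 6 combination libraries below all 6 control libraries, 2 of 5 members beside 16.5% of all genes.

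Side by side, the sum differed by -1.17 on the log2 scale between cells with and without EGCG when resveratrol was absent, and by -0.57 when it was present. No test of whether these values differ from each other is reported, because the first chose the genes.

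**Figure D4:**
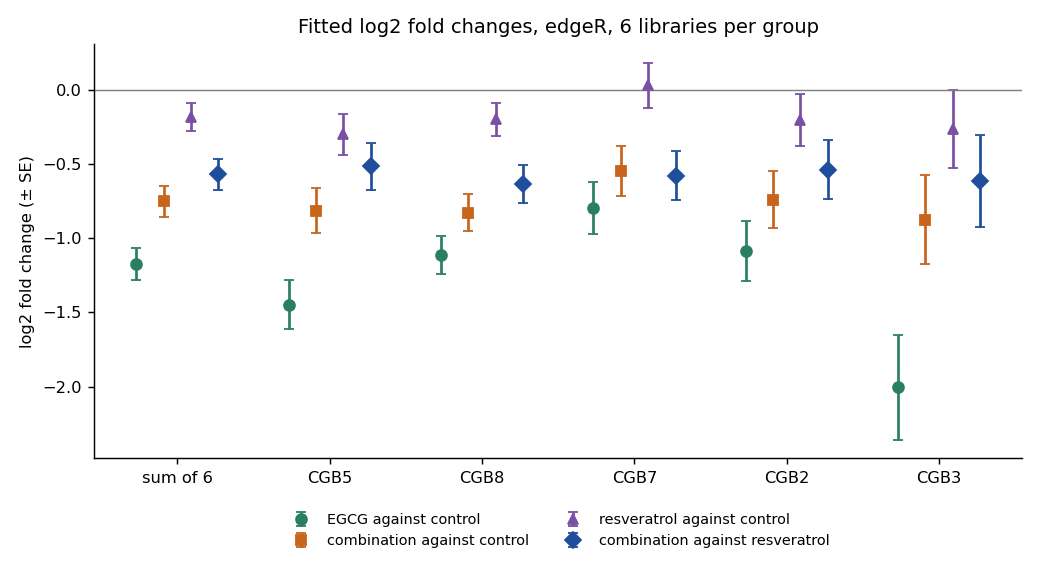
Fitted log2 fold changes (vertical axis, points with SE) of the sum and of the 5 tested CGB genes in 4 comparisons of 6 against 6 libraries. Values of EGCG against control run from -2.0 for CGB3 to -0.79 for CGB7, and those of the combination against resveratrol from -0.63 to -0.51.

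Over the 24 libraries the normalized log2 CPM of the 5 tested members had Pearson correlations between pairs of 0.58 (CGB3 and CGB7) to 0.89 (CGB2 and CGB5). These libraries include the control and EGCG values that chose the genes, so the sign of these correlations is in part fixed by the choice. As deviations from the group means, which leave the differences between groups out, the correlations were 0.25 (CGB5 and CGB7) to 0.69 (CGB2 and CGB5) among CGB2, CGB5, CGB7 and CGB8, and -0.11 to 0.06 for the 4 pairs with CGB3. The copies may share reads, and the part of shared reads in these values was not tested. Other genes were ranked by their correlation with the family sum over the same libraries. Genes that differ between control and EGCG therefore come to both ends of the ranking in part through the choice of the family. KRT81, a hair keratin, had the pattern most like the family sum among 15471 other genes (r = 0.88 in log2 CPM over 24 libraries). The next were SELENOW (r = 0.87), SELENOH (0.82) and GPX1 (0.79), which encode selenoproteins, and MYO7B (0.78), an unconventional myosin. KRT81 had its highest mean normalized count in the control (300.0 ± 16.8), followed by resveratrol (275 ± 10.9), the combination (223 ± 18.3) and EGCG (191 ± 16.6; SD, n = 6), which is the order of the sum. SELENOW, by contrast, had similar means in the combination (296 ± 17.3) and with EGCG alone (308 ± 11.5), against 935 ± 41.9 in the control and 808 ± 30.5 with resveratrol.

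The patterns most opposed to the sum were those of BNIP3 (r = -0.89), its pseudogene BNIP3P1 (-0.86) and P4HA1 (-0.86). BNIP3 encodes a mitophagy receptor and P4HA1 a collagen prolyl hydroxylase, both known as hypoxia-inducible. BNIP3 had its highest mean normalized count with EGCG (444 ± 31.5), then in the combination (362 ± 17.9), the control (251 ± 2.76) and resveratrol (217 ± 18.1). Within groups the likeness was weak: for deviations from the group means r was 0.07 for KRT81 and -0.26 for BNIP3, so the correlations describe the differences between the 4 groups.

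Of the tested genes around the cluster none was called as lower in the combination than with resveratrol, beside 3.86% of all tested genes. With so low a share, this count does not set the neighbours apart. Within 200 kb of either end the annotation lists 35 genes besides the members, of which 12 were tested. None was called with EGCG alone by edgeR or by DESeq2, beside the 1.76% of all genes that were called. In edgeR, 0 of 12 had an unadjusted p under 0.05 there. In the combination against resveratrol, PPP1R15A, the stress-induced regulatory subunit of a phosphatase, was called, as higher (log2 fold change 0.22, SE 0.0417, edgeR adjusted p = 0.000856). Here 3 of 12 had an unadjusted p under 0.05 in edgeR, and 1 of 12 was called beside 7.86% of all tested genes. The median log2 fold change of the 12 neighbours was -0.01 with EGCG and 0.06 for the combination against resveratrol, and over all genes tested both medians were within 0.01 of 0.

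RUVBL2, an ATPase of chromatin remodelling complexes, is the nearest tested gene before the cluster. Its mean normalized count was 1791 ± 56.4 in the control and 1775 ± 70.7 with EGCG, and 1452 ± 39.5 with resveratrol and 1469 ± 72.7 with the combination (SD, n = 6). The log2 fold change was -0.01 (SE 0.0336) with EGCG and 0.02 (SE 0.0342) for the combination against resveratrol. On the other side lies ENSG00000268108, a long noncoding RNA with 20 counts in all, and then NTF4, a neurotrophin, with log2 fold changes of 0.09 (SE 0.200) and 0.20 (SE 0.207). Resveratrol against control called 6 neighbours as higher and 3 as lower, beside 56.9% of all genes in either direction, and the combination against control 5 and 3, beside 59.8%.

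**Figure D5:**
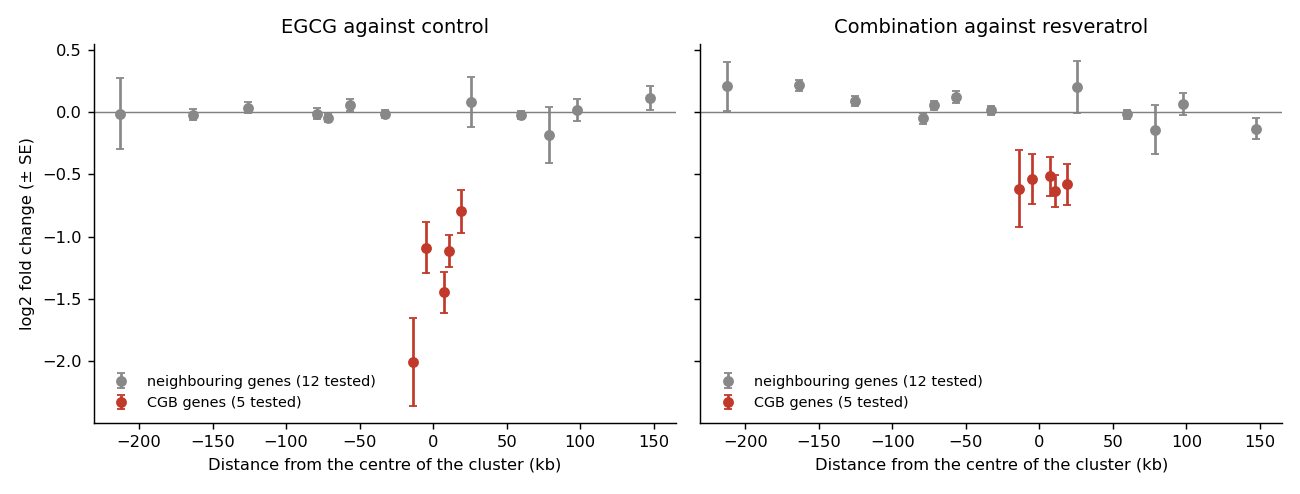
Log2 fold change with SE (vertical axis) of the 5 tested CGB genes in red and of 12 tested neighbours in grey, by distance in kb from the centre of the cluster (horizontal axis). The left panel shows EGCG against control, where the CGB genes were chosen, and the right panel the combination against resveratrol, where the CGB genes lie between -0.63 and -0.51 and the neighbours between -0.14 and 0.22.

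Transcription factors known from work on CGB promoters were measured in 18 genes, of which 15 were tested and TFAP2B had no count. With EGCG alone 2 of 15 were called, beside 1.76% of all tested genes, both lower and both named after their values were seen: OVOL1, a zinc finger repressor, with a log2 fold change of -0.46 (SE 0.121, edgeR adjusted p = 0.0431), and TFAP2A, an AP-2 factor, with -0.15 (SE 0.0430, adjusted p = 0.0699). Neither was called within either replicate set, or without control replicate 5, control replicate 6 or EGCG replicate 2. OVOL1 was also not called without EGCG replicate 5, and its edgeR adjusted p with 1 library left out ran from 0.00991 to 0.136. TFAP2A was not called without 6 of the 12 libraries, which also included control replicate 2 and EGCG replicates 1 and 3, and its edgeR adjusted p ran from 0.0440 to 0.212. OVOL1 had a mean normalized count of 72.5 ± 9.94 in the control and 52.6 ± 10.2 with EGCG, but 80.5 ± 7.80 with resveratrol and 80.2 ± 12.1 with the combination. In the combination against resveratrol JUN, a subunit of AP-1, was called as higher (log2 fold change 0.15, SE 0.0455, edgeR adjusted p = 0.0429) and RXRA, a retinoid receptor, as lower (-0.14, SE 0.0402, adjusted p = 0.0378), 2 of 15 beside 7.86% of all tested genes. JUN was not called without resveratrol replicate 2 (edgeR adjusted p = 0.137), and RXRA was not called without combination replicate 5 (edgeR adjusted p = 0.103). In replicates 4 to 6 alone none of the 15 was called, and without combination replicate 4 the count was 4. Resveratrol against control gave 2 higher and 6 lower, beside 56.9% of all tested genes called in either direction, and the combination against control 1 higher and 6 lower, beside 59.8%. The median log2 fold change of the 15 was -0.05 with EGCG and -0.03 for the combination against resveratrol.

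The cAMP and protein kinase A genes, 13 of 14 tested, included none called by edgeR or DESeq2 with EGCG alone, beside 1.76% of all tested genes. Of the 13, 2 had an unadjusted p under 0.05 in edgeR there. In the combination against resveratrol none was called by either tool either, beside 7.86% of all tested genes, and 1 had an unadjusted p under 0.05 in edgeR. Their median log2 fold change was 0.01 and 0.02 in these comparisons. Against the control, resveratrol gave 4 higher and 3 lower of 13, beside 56.9% of all tested genes called in either direction, and the combination 4 and 5, beside 59.8%. Of the 3 genes with the smallest p, ADCY6, an adenylyl cyclase, rose from a mean normalized count of 59.0 ± 11.7 in the control to 107 ± 13.3 with resveratrol (log2 fold change 0.85) and 125 ± 7.31 in the combination (1.09). PRKACA, the catalytic subunit of protein kinase A, had 0.40 and 0.37, and RAPGEF3, a cAMP-activated exchange factor, had -0.56 and -0.53. The edgeR adjusted p of these genes lay between 3.59e-11 and 0.000116.

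Other genes of the placenta were read in these cells in part, at levels that differed widely. Of 33 placental genes, 7 had no count in any library and 12 were tested. Those without a count included the placental lactogen genes CSH1 and CSH2, the placental growth hormone gene GH2 and the syncytin gene ERVFRD-1. Among the 12, the median FPKM over the 24 libraries ran from 0.273 for ADAM12 to 122 for SDC1. It was 6.90 for ALPP and 5.81 for TFPI2. With EGCG alone 1 of 12 was called, beside 1.76% of all tested genes: ALPP, placental alkaline phosphatase, was lower (log2 fold change -0.30, SE 0.0639, edgeR adjusted p = 0.00681). ALPP was also lower in the combination than with resveratrol (-0.30, SE 0.0857, edgeR adjusted p = 0.0313), while TFPI2, a protease inhibitor of the placenta, was higher (0.25, SE 0.0753, edgeR adjusted p = 0.0430), 2 of 12 beside 7.86% of all tested genes. TFPI2 was not called without resveratrol replicate 2 (edgeR adjusted p = 0.113) or within either replicate set. ALPP was called with each of the 12 libraries left out in both comparisons, but with EGCG it was called in neither replicate set, and in the combination against resveratrol it was called in replicates 4 to 6 (edgeR adjusted p = 0.0157) and not in replicates 1 to 3 (edgeR adjusted p = 0.600). Unlike the CGB sum, ALPP was low with resveratrol alone, with mean normalized counts of 119 ± 13.8 there, 95.8 ± 10.8 in the combination, 236 ± 15.8 with EGCG and 289 ± 15.5 in the control. Resveratrol against control gave 1 higher and 6 lower of 12, beside 56.9% of all tested genes called in either direction, and the combination against control 2 and 5, beside 59.8%. The median log2 fold change of the 12 was -0.05 with EGCG and 0.02 for the combination against resveratrol.

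The other glycoprotein hormone genes were silent at this depth. Of FSHB, TSHB, GPHA2, GPHB5 and the receptors LHCGR, FSHR and TSHR, 6 had no count in any of the 24 libraries and TSHR had 1. LHCGR, the receptor that binds chorionic gonadotropin, was among the genes without a count, so the CGB genes were read in cells in which neither the alpha subunit nor this receptor was detected.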

How the data were processed

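MDA686TU RNA was analysed in 24 libraries, 6 in each of 4 groups. Per the paper's methods and the submitters' processing notes, the authors made stranded mRNA libraries, used HISAT2 2.0.4 for alignment to GRCh38 after trimming by Trimmomatic 0.36, and ran SAMtools 1.3.1 and DESeq2 1.20.0. The counting program, annotation release, strand setting and handling of reads that match several genes are not given in the sources used here. The authors deposited raw counts per gene, used for all tests. The authors also deposited normalized counts, a signal equal to the raw count divided by a size factor per library, and FPKM values, used for levels.

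All libraries were fitted with edgeR 4.0.16 (R 4.3.3): filterByExpr, TMM normalization and the quasi-likelihood test, with Benjamini-Hochberg adjustment over all genes tested and, for the family sum, 1 row in place of the 6 CGB genes. Log2 CPM used a prior count of 2. DESeq2 1.42.0 and other scalings, filters, samples and sums were alternatives. The steps were tested on simulated data. The result of 1 listed gene is not reported here. The replicate numbers mark no shared origin in the labels. Depth was 7034872 to 11735574 counts per library.

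The members and gene lists were chosen with earlier results of these data known. Named genes were the members, list genes called in the combination against resveratrol or else the 3 with the smallest p against control, adjacent neighbours, and the 5 most and 3 least correlated genes. OVOL1 and TFAP2A were named after their values were seen. Windows, identities and motifs came from GENCODE transcripts and RefSeq promoters.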

Additional observations from a re-analysis of the deposited data

Results flagged for a closer look

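A library was set apart from the others of its group when its gap to the nearest library, as a part of the range of the group, passed Dixon's critical value for 6 samples. Of 32 groups examined (each member and the sum in each of the 4 groups, where not all were 0), 6 had such a library. Chance gives about 1 in 20 where values are spread, which does not apply to the 4 groups with 5 libraries at 0, since any count there passes by construction. The family sum had 1, control replicate 6, at a normalized count of 244, where the other control libraries reached 177. In that library CGB2, CGB3, CGB5, CGB7 and CGB8 each had their highest control value. CGB3 had 1 with EGCG, replicate 5, at 3.74, from 5 counts. These 4 rest on 1 to 3 counts where the rest of the group had none: CGB1 in EGCG replicate 6 (1.22), in resveratrol replicate 3 (0.873) and in combination replicate 2 (2.11), and LHB in EGCG replicate 6 (3.67).

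Among the list genes, COL1A1, a stromal marker, differed in its response to EGCG with and without resveratrol, by 0.46 on the log2 scale (edgeR interaction term, adjusted p = 0.000787). Its log2 fold change was -0.27 for EGCG against control and 0.19 for the combination against resveratrol.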

How the results depend on the processing

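The family sum kept its direction in all 26 alternatives of each comparison, and for the combination against resveratrol it stayed called, at log2 fold changes of -0.63 to -0.51 and adjusted p of 8.46e-09 to 0.0141. Leaving out each library in turn gave -0.63 to -0.53 there. Deviations of libraries with the same replicate number had small correlations, of -0.0025 to 0.13. Such values do not settle whether the numbers pair the libraries. With the replicate number as a block the sum had -0.57 (adjusted p = 5.09e-05), 4 members were called in place of 3, CGB2 being the one added (adjusted p = 0.0871), and 4 regulators in place of 2. Over all tested genes the block called 1520 in this comparison, beside 1217 of 15476 without it. With 1 library left out, 2 to 4 members were called, and in either replicate set alone 1. Called regulators numbered 1 with EGCG when every gene with a count was tested, 0 in either replicate set, and 0 to 3 with a library left out. Testing every gene with a count called 274 of 33693 genes with EGCG, beside 273 of 15476 in the main fit. In the combination against resveratrol the called regulators numbered 4 with a minimum of 10 counts and with a batch term. This term set replicates 1 to 3 against 4 to 6, a split that no source names as a batch. The called regulators numbered 0 in replicates 4 to 6, and 1 to 4 with a library left out. Over all tested genes, 1231 of 13485 were called with the minimum, 1408 of 15476 with the batch term and 399 of 15442 in replicates 4 to 6. In replicates 1 to 3, the cAMP list had 4 called with resveratrol and 1 in the combination against resveratrol, the placental list 0 with EGCG and 0 in the combination against resveratrol, and the neighbours 5 with resveratrol. Of all 15691 genes tested there, 7183 were called with resveratrol, beside 8807 of 15476 in the main fit. The combination against resveratrol had 816 called there, and EGCG 84. In replicates 4 to 6, the cAMP list had 5 called with the combination and the placental list 0 with EGCG. Of all 15442 genes tested there, 7705 were called with the combination, beside 9258 of 15476 in the main fit, and 85 with EGCG. Leaving out a library gave, in the combination against resveratrol, 0 to 1 cAMP genes, 1 to 3 placental genes and 1 to 2 neighbours. The number called over all genes moved as well, for example to 899 of 15547 without resveratrol replicate 2. The replicate sets hold 3 libraries per group, and the cause of the other moves was not tested. CGB3 had 2 to 18 counts per library.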
